A study of Mus musculus with 7 samples.

Results

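The 10 genes described here encode the core of the interleukin-1 pathway and of the inflammasome that activates it: the ligands Il1a, Il1b and Il18, the secreted inhibitors Il1rn and Il18bp, the sensor Nlrp3, the adaptor Pycard, the caspases Casp1 and Casp4, and the pore-forming protein Gsdmd. They were chosen by name and by what they encode, not by a measured value, although earlier results of these data were known. They are 10 of the 50686 genes quantified in each library. All 10 were measured in all 7 libraries and passed the filter on low counts.

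The libraries were made from microglia of 4 Young (3 to 4 months) and 3 Old (21 to 22 months) male C57BL/6 mice, 1 mouse per library, called here by the codes of the sample labels (14C, 18C, 23C and 29C for Young; 2posI, 3posI and 4posI for Old). All 7 mice had undergone transient occlusion of the middle cerebral artery 4 days earlier, and beside the anesthesia and analgesia of the surgery no drug treatment is named for them. Cells were taken from the forebrain by enzymatic and mechanical dissociation and sorted by flow cytometry with antibodies to CD11b and CD45, with only cells stained by Bodipy, a dye of neutral lipids, kept at both ages. The comparison therefore sets old against young lipid-laden microglia after ischemia, and microglia without lipid staining or from mice without ischemia were not analysed here.

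Interleukin-1 beta and interleukin-18 are made as inactive precursors that have to be cut before they can signal. In microglia and other myeloid cells, a first signal, often through NF-kB, raises the transcripts of Il1b and Nlrp3. A second signal then makes the NLRP3 protein assemble with the adaptor ASC, encoded by Pycard, and caspase-1, which cuts both cytokines and gasdermin D, whose released fragment forms pores in the cell membrane. Caspase-4 of the mouse, also called caspase-11, binds bacterial lipopolysaccharide in the cytosol and cuts gasdermin D directly. Interleukin-1 alpha is active without this cut, the interleukin-1 receptor antagonist encoded by Il1rn blocks its receptor, and the protein encoded by Il18bp binds interleukin-18 outside the cell. Transcript levels do not report cutting or release, which were not measured in these libraries.

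In the annotation of GRCm38 the genes lie in 6 places of 1 gene each and in 2 pairs of close neighbours. Il1a (chr2:129299610-129309972) and Il1b (chr2:129364570-129371139) are both on the minus strand, and Casp1 (chr9:5298517-5307265) and Casp4 (chr9:5308828-5336783) are both on the plus strand. Il1rn is at chr2:24336853-24351494, Il18 at chr9:50554827-50581840, Nlrp3 at chr11:59541568-59566956 and Gsdmd at chr15:75862327-75867408, all on the plus strand. Il18bp is at chr7:102014885-102018690 and Pycard at chr7:127989708-127993867, both on the minus strand.

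Promoter sequences of RefSeq on GRCm38.p6 were found for 9 of the 10 genes, without Gsdmd. They run from 250 bases before to 50 bases after an annotated start. 3 are shown, since Nlrp3 was the gene whose levels separated the ages and Casp4 and Casp1 are the neighbours whose ratio did so. Capitals mark matches to the NF-kB consensus, searched on both strands. They are given 5′ to 3′ on the plus strand, for Nlrp3 at chr11:59541319-59541618, Casp4 at chr9:5308599-5308898 and Casp1 at chr9:5298267-5298566.
Nlrp3: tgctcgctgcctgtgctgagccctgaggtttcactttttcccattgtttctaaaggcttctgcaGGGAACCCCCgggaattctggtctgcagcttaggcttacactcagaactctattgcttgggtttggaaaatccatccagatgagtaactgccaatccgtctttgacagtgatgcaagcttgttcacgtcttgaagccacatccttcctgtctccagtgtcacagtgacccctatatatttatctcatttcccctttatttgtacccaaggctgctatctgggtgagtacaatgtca
Casp4: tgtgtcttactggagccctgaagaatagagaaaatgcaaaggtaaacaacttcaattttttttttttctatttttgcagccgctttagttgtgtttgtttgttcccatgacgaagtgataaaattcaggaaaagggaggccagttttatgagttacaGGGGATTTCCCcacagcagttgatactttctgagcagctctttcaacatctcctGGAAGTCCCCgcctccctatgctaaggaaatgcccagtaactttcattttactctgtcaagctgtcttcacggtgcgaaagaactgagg
Casp1: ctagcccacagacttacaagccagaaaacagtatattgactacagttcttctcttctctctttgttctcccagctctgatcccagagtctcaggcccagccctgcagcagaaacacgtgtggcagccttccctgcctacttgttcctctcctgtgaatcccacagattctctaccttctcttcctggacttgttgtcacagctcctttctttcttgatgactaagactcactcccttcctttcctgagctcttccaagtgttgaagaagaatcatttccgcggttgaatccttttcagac
The Nlrp3 promoter held 1 stretch that matched on both strands, and the Casp4 promoter held 2 stretches, the first of which is made of overlapping matches. A further Nlrp3 start and the promoters of the other 7 genes, Casp1 included, held none, and 8.46% of all 32851 promoters in the table held at least 1 match. A GAAA repeat with a gap of 2 bases, the core of the interferon-stimulated response element, was in none of these promoters and in 3.44% of all. These are matches of letters, and binding was not measured.

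Total expected counts were 36574083 to 53002386 per library, of which the 10 genes took 0.127% to 0.187%. Per length, in TPM (a gene's share of the library's transcripts after correction for length), the members spanned a wide range. Pycard was the most abundant, with a mean of 579.9 TPM over the 7 libraries, followed by Il1a at 467.9 TPM and Il1b at 262.2 TPM. In every library Pycard was above at least 98.7%, Il1a above at least 96.2% and Il1b above at least 92.9% of the genes tested. The least abundant was Il1rn, with a mean of 21.9 TPM, and still above at least 63.4% of the genes tested in every library. Between these, Nlrp3 had a mean of 89.7 TPM, Gsdmd 79.8 TPM, Casp4 47.6 TPM, Il18bp 40.0 TPM, Il18 38.2 TPM and Casp1 37.9 TPM. The ranges over libraries overlapped between all neighbours in this order except Gsdmd and Casp4, so the order of means does not hold in every library. Il1a was above Pycard in 14C, 18C and 4posI. Il1rn was above Il18bp in 18C and 29C, and above Nlrp3, Casp1, Casp4 and Il18 in 3posI.

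The sorted cells had high levels of microglial markers. The summed level of 9 such genes, among them P2ry12, Tmem119 and Cx3cr1, was 13140 to 21630 CPM (the usual scaling of a gene's counts by the library total, here with TMM factors, edgeR's correction for composition) in the young mice and 15570, 7109 and 14680 CPM in old mice 2posI, 3posI and 4posI. Old mouse 3posI stood apart. The 6 monocyte markers summed to 2415 CPM in it, against 36.1 to 207 CPM in the young mice and 174 and 129 CPM in the other old mice, and Chil3, a chitinase-like protein of myeloid cells, alone reached 1426 CPM there. The other old mice also exceeded every young mouse in 2 of these markers. Ly6c2 was at 15.3, 162 and 9.59 CPM in 2posI, 3posI and 4posI against 0.946 to 2.86 CPM in young mice, and Plac8 at 6.91, 86.2 and 11.7 CPM against 0.922 to 4.56 CPM. All 6 monocyte markers had a higher fitted level in old mice (against 48.8% of all genes), 4 with an unadjusted p under 0.05 (18.9% of all genes). The ages did not overlap for 2 of them (17.7% of all genes). Their median log2 fold change was 3.69 with 3posI included, in which each of the 6 was highest. In 2posI and 4posI, Ccr2, F13a1 and Vcan lay within the range of the young mice, and Chil3 exceeded it in 4posI only. The markers of border-associated macrophages summed to 447.5 CPM in 3posI, against 39.0 to 206 CPM in the other libraries. Most of this sum was Pf4, at 315 CPM in 3posI against at most 75.2 CPM elsewhere. Lyve1 was also highest in 3posI, whereas Mrc1, Cd163 and Cd209f were higher in 2posI than in 3posI. Neutrophil markers were 16.98 to 148 CPM in young and 51.7 to 168 CPM in old mice. Dendritic cell markers summed to 3.96 to 6.86 CPM in young and 8.77 to 15.3 CPM in old mice, with Xcr1 and Clec9a below 1 CPM in every library. These markers differed in direction, with 3 fitted higher and 2 lower in old mice. Cd209a was at 0.086 to 1.48 CPM in young and 4.49 to 6.85 CPM in old mice. Zbtb46 was at 2.26 to 3.76 CPM in young and 1.04 to 2.40 CPM in old mice, and Flt3 reached 6.72 CPM in 3posI. T and NK cell markers summed to 0.196 to 0.671 CPM in young mice and 0.209, 1.69 and 2.44 CPM in 2posI, 3posI and 4posI. Of these 5 genes 4 were fitted higher in old mice, each with an unadjusted p under 0.05 (18.9% of all genes), and 1 lower. Cd3e, Cd3g, Cd3d and Klrb1c were below 1 CPM in every library. B cell markers were 9.66 to 22.6 CPM, astrocyte markers 10.9 to 79.3 CPM, oligodendrocyte markers 43.2 to 61.6 CPM, neuronal markers at most 3.22 CPM and endothelial markers 40.4 to 97.9 CPM. No marker was at 0 in all libraries and none of those tested passed between ages. In such bulk libraries fewer cells of a type and less RNA per cell cannot be told apart. Immediate early genes such as Fos and Jun, which respond within minutes to tissue handling and to many other stimuli, summed to 15040 to 20880 CPM in young mice and to 8732, 10140 and 16830 CPM in 2posI, 3posI and 4posI. All 10 of them had a lower fitted level in old mice (48.8% of all genes had a higher one), 3 with an unadjusted p under 0.05 (18.9% of all genes), and 0 were called by edgeR's quasi-likelihood test after adjustment. The range of the young mice and that of the old mice overlapped.

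**Figure D1:**
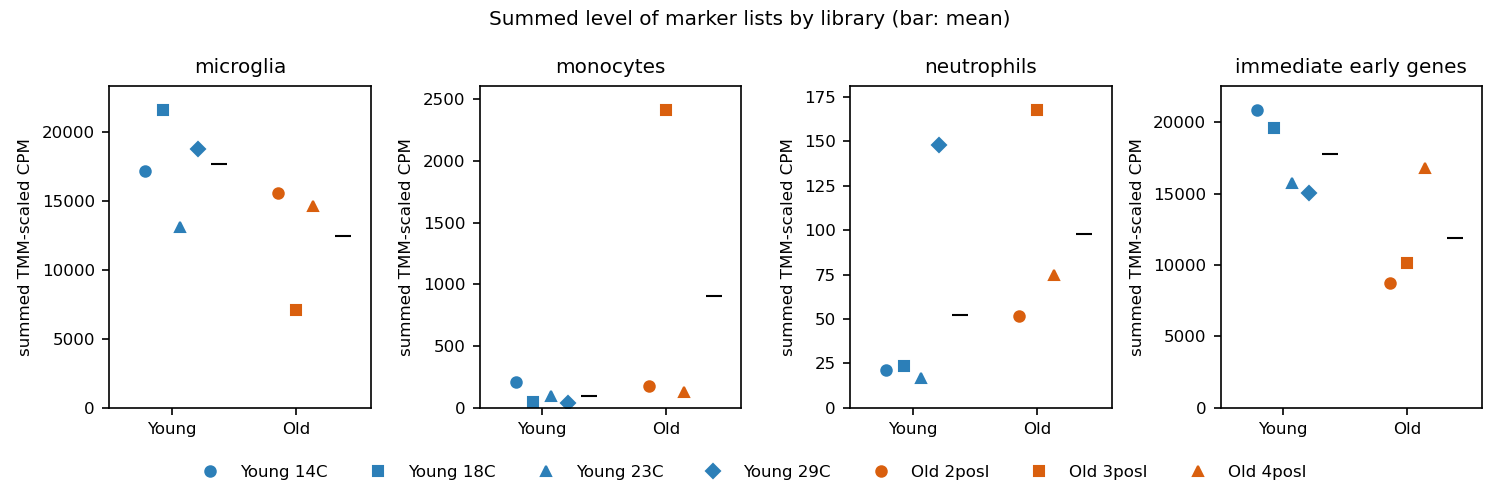
Summed level (TMM-scaled CPM) of marker lists of microglia, monocytes and neutrophils and of 10 immediate early genes in each library, with blue points for Young, orange for Old and a bar for the mean. Old mouse 3posI is the lowest for microglial markers at 7109 CPM and the highest for monocyte markers at 2415 CPM, and 2posI and 3posI are below all young mice in immediate early genes.

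The comparison of ages asked whether transcripts of this pathway differed between old and young lipid-laden microglia after ischemia. Nlrp3 was lower in every old mouse than in every young mouse, at 48.3% below the young level, and Il18bp was fitted at 2.69 times the young level, but neither passed the threshold. In the quasi-likelihood fit of edgeR, with p-values adjusted by Benjamini-Hochberg over 17559 genes, 0 of the 10 genes had an adjusted p under 0.05, where 0.803% of all genes did (141, with 100 higher and 41 lower in old mice). At an unadjusted p under 0.05 were 2 of the 10, Nlrp3 and Il18bp, against 18.9% of all genes. The ages did not overlap in CPM for 1 of the 10, Nlrp3, against 17.7% of all genes. limma-voom called 0 of the 10, with 0.814% of all genes called, and DESeq2 called 2, again Nlrp3 and Il18bp, with 9.51% of all genes called. A higher fitted level in old mice was found for 6 of the genes and a lower one for 4, with a median log2 fold change of 0.14 against -0.01 over all genes. Without 3posI, 3 of the 10 had an unadjusted p under 0.05 (Il1b, Nlrp3 and Casp1, with 17.5% of all genes) and 2 did not overlap between ages (Il1b and Nlrp3, with 28.6% of all genes), and 0 were called.

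**Figure D2:**
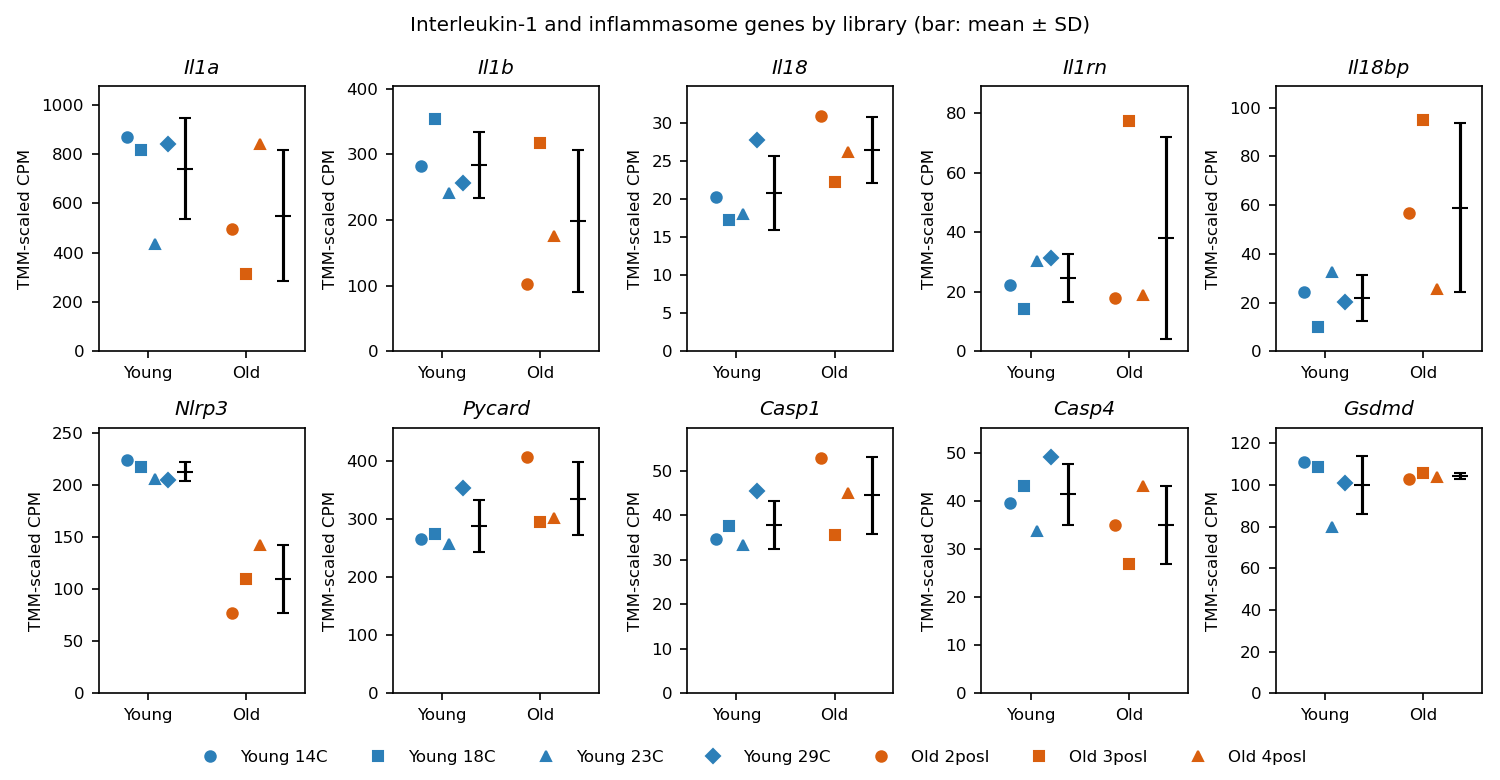
TMM-scaled CPM of each of the 10 genes in the 4 Young (blue) and 3 Old (orange) libraries, on axes that start at 0, with a bar for the mean and SD of each age. Nlrp3 is the only gene whose ages do not overlap, at 205 to 224 CPM in young and 77.3 to 142 CPM in old mice, while Il1rn and Il18bp are highest in old mouse 3posI.

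Il1a, the ligand that needs no caspase, was at 866.7, 818.0, 435.0 and 840.7 CPM in young mice 14C, 18C, 23C and 29C, and at 495.7, 315.3 and 839.5 CPM in old mice 2posI, 3posI and 4posI. The ages overlapped, with 23C far below the other young mice and 4posI level with them. The lowest library of each age, 23C and 3posI, also had the lowest summed microglial markers of its age, at 13140 and 7109 CPM, whose part in the Il1a levels was not tested. The fitted log2 fold change was -0.43 ± 0.35 (SE, n = 3 against 4; edgeR adjusted p = 0.543), with a 95% interval from -1.23 to 0.38. Il1a shares 222 of its 1974 exon bases with Gm14023, a transcript of the opposite strand that had 411 to 2479 expected counts per library. Il1a itself had 12339 to 40030. The libraries do not keep the strand, so reads in the shared bases cannot be assigned by strand, and no expected count of Il1a was whole. Its values carry this uncertainty, whose size was not tested.

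Il1b, the cytokine cut by caspase-1, was at 282.1, 353.9, 241.5 and 255.7 CPM in the young mice and at 103.2, 316.6 and 175.2 CPM in 2posI, 3posI and 4posI. Both 2posI and 4posI were below every young mouse, whereas 3posI, the library with high monocyte markers, was above 3 of the 4. The log2 fold change was -0.51 ± 0.34 (SE; edgeR adjusted p = 0.439) with an interval from -1.28 to 0.25, and -1.03 without 3posI (edgeR adjusted p = 0.0978). The part of the monocyte markers in this difference was not tested.

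Il18, the other caspase-1 substrate among the cytokines, was at 20.2, 17.2, 18.0 and 27.7 CPM in young and 30.9, 22.2 and 26.2 CPM in old mice. The means of 20.8 ± 4.82 CPM (SD, n = 4) and 26.4 ± 4.34 CPM (SD, n = 3) differed by a log2 fold change of 0.35 with an interval from -0.10 to 0.80 (edgeR adjusted p = 0.377). The ages overlapped through young mouse 29C. Thus Il1b had the lower and Il18 the higher mean in old mice, but both intervals include 0.

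Il1rn, the receptor antagonist, was at 22.4, 14.3, 30.4 and 31.6 CPM in the young mice and at 18.0, 77.5 and 18.9 CPM in 2posI, 3posI and 4posI. The higher old mean of 38.1 ± 34.0 CPM (SD, n = 3) came from 3posI alone. The log2 fold change was 0.63 with all libraries (interval -0.55 to 1.81; edgeR adjusted p = 0.543) and -0.42 without 3posI (edgeR adjusted p = 0.4997).

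Il18bp, the binding protein of interleukin-18 and a gene known to respond to interferon gamma, was at 24.6, 9.96, 32.7 and 20.4 CPM in young and 56.6, 94.8 and 25.6 CPM in old mice. Both 2posI and 3posI exceeded every young mouse, and 4posI lay among them. The fitted log2 fold change of 1.43 ± 0.47 (SE), with an interval from 0.37 to 2.49, was the largest of the 10 genes and had an edgeR adjusted p of 0.163. By DESeq2 it was 1.44 with an adjusted p of 0.0272. Without 3posI, the library with the highest level and the most monocyte markers, the log2 fold change was 0.91 (edgeR adjusted p = 0.319). Il18bp shares 80 of its 3026 exon bases with Numa1, a gene with 2395 to 5194 expected counts per library, and none of its expected counts was whole, so its values carry the same uncertainty.

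Nlrp3, the sensor, had close values in the young mice and a separate, lower range in the old mice. It was at 224.0, 216.8, 205.7 and 204.5 CPM in 14C, 18C, 23C and 29C, which is 10345, 9692, 10486 and 9508 expected counts. In 2posI, 3posI and 4posI it was at 77.3, 110.1 and 142.4 CPM, which is 2594, 4307 and 6594 expected counts. Every old mouse was below every young mouse, by a log2 fold change of -0.95 ± 0.20 (SE; interval -1.40 to -0.51). The edgeR adjusted p of 0.0660 (unadjusted 0.00103, rank 271 of the genes tested) missed the threshold. It was 0.000578 by DESeq2, 0.0540 by limma-voom, 0.0340 by edgeR with no filter on low counts (1.05% of all genes called) and 0.0472 by edgeR without 4posI, the old mouse with the highest level (0.467% of all genes called). Without 3posI, the library rich in monocyte markers, the log2 fold change was also -0.95, with an edgeR adjusted p of 0.0977. In TPM the young mice were at 104 to 129 and the old mice at 30.4, 50.7 and 74.8. The old mice held the same order in the summed immediate early genes, lowest in 2posI and highest in 4posI. Single genes of that list differed. Among the old mice Jun, Egr1, Ier2 and Zfp36 were lowest in 3posI, and Nr4a1 was highest there. The part of the immediate early genes in the Nlrp3 difference was not tested.

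Pycard, the adaptor that joins the sensor to caspase-1, was at 265.3, 274.6, 257.2 and 353.9 CPM in young and 406.9, 295.1 and 301.5 CPM in old mice. The ages overlapped and the log2 fold change was 0.22 with an interval from -0.18 to 0.61 (edgeR adjusted p = 0.529). Pycard shares 485 of its 3800 exon bases with Gm45205, which had 258 to 588 expected counts per library, and its own expected counts were not whole in any library. The sensor and its adaptor thus had opposite fitted directions, a contrast that was not tested. Nlrp3 was lower in all 3 old mice than in any young mouse, and Pycard was higher in all 3 old mice than in 3 of the 4 young mice.

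Casp1, which cuts interleukin-1 beta and interleukin-18, was at 34.8, 37.7, 33.4 and 45.4 CPM in young and 52.9, 35.7 and 45.1 CPM in old mice, a log2 fold change of 0.24 (interval -0.14 to 0.62; edgeR adjusted p = 0.474). Casp4, which acts in the noncanonical pathway, was at 39.5, 43.0, 33.8 and 49.0 CPM in young and 34.9, 26.8 and 43.0 CPM in old mice, a log2 fold change of -0.25 (interval -0.67 to 0.18; edgeR adjusted p = 0.509). For each caspase the ages overlapped. Gsdmd, the pore protein that both can cut, was the steadiest of the genes in old mice, at 103.0, 105.8 and 103.9 CPM, within the 80.1 to 110.9 CPM of the young mice. Its log2 fold change of 0.06 had an interval from -0.25 to 0.37 (edgeR adjusted p = 0.847), so a change of more than 1.29-fold in either direction lies outside the interval.

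**Figure D3:**
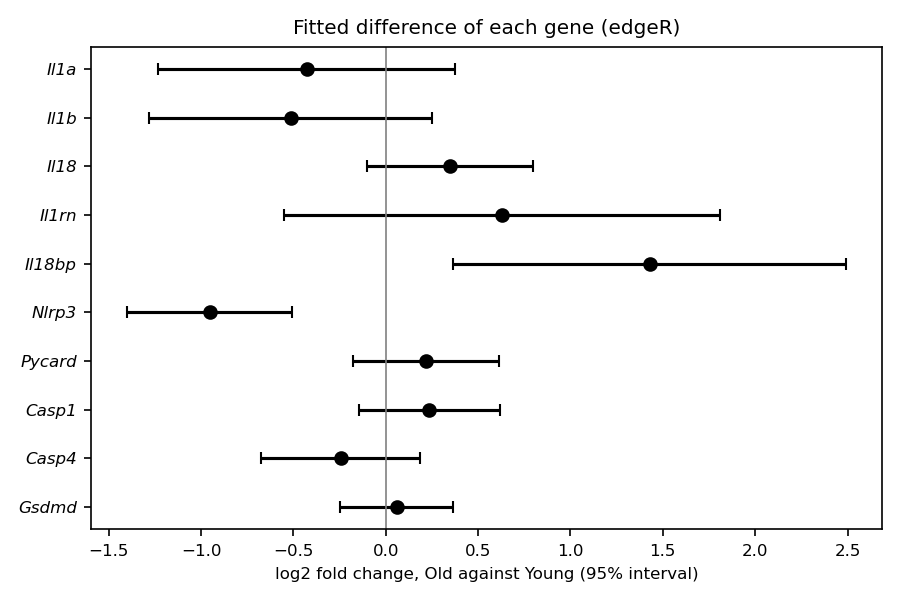
Fitted log2 fold change of each gene, Old against Young (edgeR), with its 95% interval and a line at 0. Only the intervals of Nlrp3, at -0.95, and Il18bp, at 1.43, exclude 0, and neither gene passed the adjusted threshold, while Gsdmd lies at 0.06 with a narrow interval.

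Ratios within a library set a pair of genes side by side without the scaling between libraries. 4 ratios of TPM were tested by two-sided exact permutation over the 35 ways to choose 3 of the 7 libraries, for which the smallest possible p is 0.0286. The ratio of Casp4 to Casp1 was 1.53, 1.62, 1.31 and 1.48 in young mice and 0.794, 0.927 and 1.21 in 2posI, 3posI and 4posI. It was above 1 in all young mice and lower in every old mouse, by 0.62 on the log2 scale, or 0.651 times the young ratio. The exact permutation p was 0.0286, the smallest the design allows, and 0.114 after Benjamini-Hochberg adjustment over the 4 ratios. Computed from CPM the difference was -0.49 on the log2 scale.

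The balance of inhibitor to ligand did not separate the ages. Il1rn to Il1b was 0.0533, 0.0293, 0.0867 and 0.0878 in young and 0.119, 0.169 and 0.0797 in old mice, a difference of 0.99 on the log2 scale (exact permutation p = 0.171, adjusted 0.305). Il18bp to Il18 was 0.761, 0.359, 1.23 and 0.497 in young and 1.15, 2.93 and 0.609 in old mice, also a difference of 0.99 (exact permutation p = 0.229, adjusted 0.305), which was 0.39 without 3posI. In each ratio 4posI fell among the young mice. Il1a to Il1b was 1.19 to 2.20 in young mice and 3.19, 0.669 and 3.19 in 2posI, 3posI and 4posI (exact permutation p = 0.857), a difference of 0.16 on the log2 scale that was 0.91 without 3posI, the only library with more Il1b than Il1a per length.

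**Figure D4:**
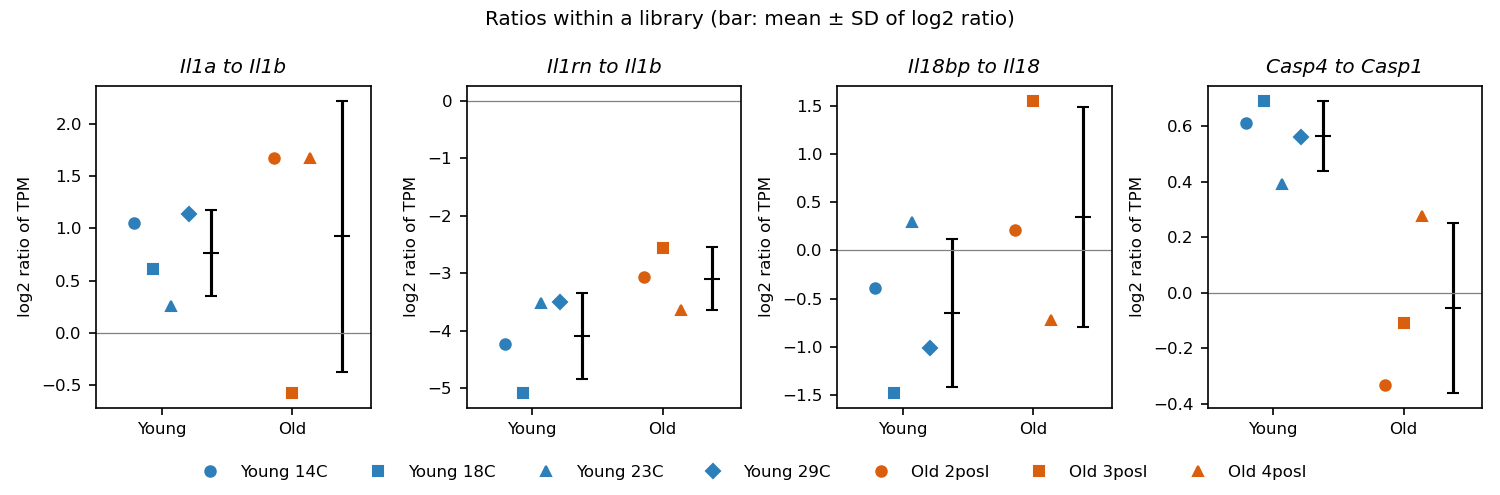
Log2 ratio of TPM within each library for 4 pairs of genes, with blue points for Young, orange for Old and a bar for the mean and SD of the log2 ratios. Casp4 to Casp1 is the only ratio whose ages do not overlap, and old mouse 3posI lies apart from the other old mice in Il1a to Il1b and Il18bp to Il18.

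Around these members, 53 further genes were listed, from other ligands of the interleukin-1 family to receptors, signalling proteins, other sensors, regulators of NLRP3 and other caspases. Of the 51 found in the files 41 were tested, and edgeR called 0 of them and limma-voom 0. DESeq2 called 5 of the 37 to which it gave an adjusted p, or 13.5%, against 9.51% of all genes: Map3k7 (adjusted p = 0.000632), Tab1 (0.00126), Tab2 (0.0111), Trim30a (0.0385) and Tnfaip3 (0.0412). At an unadjusted p under 0.05 were 5 higher and 3 lower in old mice, together 19.51% of the list against 18.9% of all genes. The ages did not overlap for 6, or 14.63% of the list against 17.7% of all genes, and the median log2 fold change was 0.09.

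Of these 6 genes 3 were in the list of receptor signalling. Map3k7, which encodes the kinase TAK1 that carries the signal of the interleukin-1 receptor toward NF-kB, was at 12.4 to 15.4 CPM in young and 20.1 to 22.4 CPM in old mice, a log2 fold change of 0.65 ± 0.14 (SE; edgeR adjusted p = 0.0669). With a filter of at least 1 CPM in 3 libraries it passed, at an edgeR adjusted p of 0.0497, where 1.87% of all genes were called. Tab1, whose product activates this kinase, was at 22.1 to 23.5 CPM in young and 15.1 to 16.6 CPM in old mice, a log2 fold change of -0.52 ± 0.12 (SE; edgeR adjusted p = 0.0798). Tab2, an adaptor of the kinase, named here after its values were seen, was at 39.1 to 56.4 CPM in young and 64.0 to 83.8 CPM in old mice, a log2 fold change of 0.64 (edgeR adjusted p = 0.0972). The levels of Map3k7 and Tab2 were thus higher and that of Tab1 lower in every old mouse than in every young mouse, with none past the threshold of edgeR with its main filter. Tab3, the remaining partner of the kinase in the list, was not tested. The other signalling genes tested had log2 fold changes from -0.31 for Irak2 to 0.49 for Irak3, among them 0.09 for the adaptor Myd88.

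Of the 8 tested regulators of NLRP3, Tnfaip3 and Trim30a did not overlap between ages. Tnfaip3 encodes A20, a target and inhibitor of NF-kB that restrains NLRP3, and was at 669.8 to 881.0 CPM in young mice and at 222.9, 276.7 and 665.9 CPM in 2posI, 3posI and 4posI. Its log2 fold change was -1.02 ± 0.36 (SE; edgeR adjusted p = 0.179), and -1.66 without 4posI (edgeR adjusted p = 0.0455). Its old mice followed the order of Nlrp3 and of the summed immediate early genes, though not of each of those genes. The part of the immediate early genes in Tnfaip3 was not tested. Trim30a, an interferon-induced gene reported to restrain NLRP3, was at 82.5 to 170.8 CPM in young and 186.1, 209.2 and 196.0 CPM in old mice, a log2 fold change of 0.78 ± 0.24 (SE; edgeR adjusted p = 0.150). The kinase Nek7, which NLRP3 needs to assemble, and the ATP receptor P2rx7 each had a log2 fold change of -0.17, with overlapping ages.

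Among 11 other inflammasome sensors, 9 had a higher fitted level in old mice, against 48.8% of all genes, and 2 a lower one. An unadjusted p under 0.05 was found for 1 in each direction, a share near the 18.9% of all genes. Of the 9, Nlrc4, Naip1, Nlrp10, Nlrp12 and Mefv were highest in 3posI, at 6.16, 1.58, 0.946, 0.537 and 25.3 CPM. Elsewhere Nlrc4 was at most 2.22 CPM, Naip1 0.39 CPM and Nlrp10 0.238 CPM. Nlrp12 was at most 0.0588 CPM elsewhere and passed the filter on low counts through 3posI alone. Nlrp1a had a log2 fold change of 0.01. Except Mefv, these genes were named after their values were seen. The count of 9 is not read as a result about the sensors. Aim2, the sensor of cytosolic DNA, was at 38.3 to 50.8 CPM in young and 26.4, 28.8 and 45.2 CPM in old mice, a log2 fold change of -0.47 (edgeR adjusted p = 0.259). Mefv, which encodes the sensor pyrin, was at 0.425 to 2.19 CPM in young mice and at 2.18, 25.3 and 1.45 CPM in 2posI, 3posI and 4posI, with a log2 fold change of 3.23 (edgeR adjusted p = 0.155), and 0.82 without 3posI (edgeR adjusted p = 0.564). Nlrp1b was the only sensor whose ages did not overlap, at 6.55 to 9.75 CPM in young and 9.81 to 10.8 CPM in old mice (log2 fold change 0.34, edgeR adjusted p = 0.331). It was named after its values were seen, and it and the Naip genes have close copies among which reads could be divided.

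Of 7 tested receptors, the decoy receptor Il1r2, which binds interleukin-1 without signalling, had the smallest p. It was at 0.112 to 2.77 CPM in young mice and at 3.55, 32.0 and 2.53 CPM in 2posI, 3posI and 4posI, a log2 fold change of 3.61 (edgeR adjusted p = 0.156), again with 3posI far above the rest, and 1.55 without 3posI (edgeR adjusted p = 0.436). The inhibitory receptor Sigirr had a log2 fold change of -0.64 (edgeR adjusted p = 0.364). The other ligands tested had low levels, with Il33 at most 3.00 CPM and Il36g, listed as Il1f9, at most 0.741 CPM. Of the 4 other caspases and membrane proteins tested, Ninj1, which ruptures the membrane after pores form, was at 126.7 to 273.6 CPM in young mice and 214.5, 591.5 and 174.1 CPM in 2posI, 3posI and 4posI. Its log2 fold change was 0.74 (edgeR adjusted p = 0.385) with all libraries and -0.01 without 3posI. Il1rn, Il18bp, Il1r2, Mefv and Ninj1 were each highest in the library with the most monocyte markers, and the part of those markers in their levels was not tested.

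**Figure D5:**
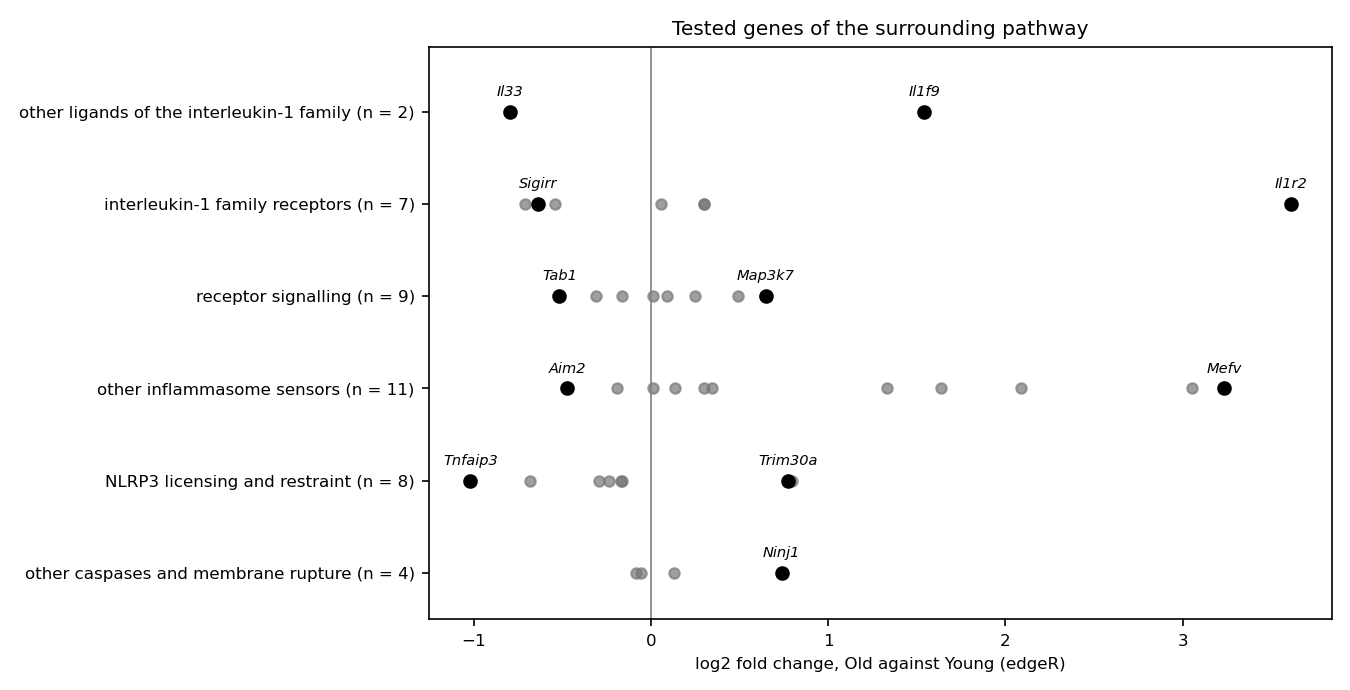
Log2 fold change, Old against Young (edgeR), of the 41 tested genes of the surrounding pathway, 1 point per gene in rows by role, with the named genes in black. No gene passed the adjusted threshold, and the largest values, 3.61 for Il1r2 and 3.23 for Mefv, are those of genes with low counts that were high in old mouse 3posI.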

How the data were processed

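Polyadenylated RNA of sorted Bodipy+ microglia was profiled in 7 libraries by low-input, non-stranded Smart-seq2. Age group and mouse code came from the sample labels, and sex, surgery, day and sorting by Bodipy from the text of the study. The authors mapped reads to GRCm38 with STAR and quantified GENCODE m15 genes with RSEM, of versions not given in the sources used here. FastQC 0.11.5 is named in the submitters' notes. The deposited files hold unnormalized expected counts. They also hold TPM and FPKM, which the authors scaled within each library. The effective length deposited by the authors served as an offset in 1 alternative, and FPKM was not used. No molecular identifiers are named, so PCR copies may be counted as separate reads.

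Expected counts were rounded. Genes needed a count above 10 in at least 1 library, as in the methods of the study, and sex-chromosomal and mitochondrial genes were removed, which gave 17559 genes. In R 4.3.3, edgeR 4.0.16 fitted an intercept and the age group, with TMM factors, the quasi-likelihood test and Benjamini-Hochberg adjustment over all genes (threshold 0.05). No batch or pairing is given in the labels. Levels between genes were compared in TPM. Positions came from GENCODE vM21, in which 224 of 50686 identifiers had no entry. The common biological coefficient of variation was 37.2%. Alternatives were limma-voom (limma 3.58.1), DESeq2 1.42.0, RLE factors, other filters, the length offset, limma on log2(TPM + 1) and log2(TPM + 0.1), and each library left out.

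The fits were tested on simulated data, where DESeq2 made a larger share of false calls than edgeR and limma-voom. The members, the lists and the tests were chosen with earlier results of these data known. Named were all members, in each pathway list the 2 genes of smallest p (for other caspases and membrane proteins only the first), and the 5 genes most like Il1b. The pathway lists left 12 of 53 genes untested or not found, such as those on X. Some genes of the lists are not reported here.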

Additional observations from a re-analysis of the deposited data

Results flagged for a closer look

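The Il1a level of young mouse 23C, 435.0 CPM, lay far below the 818.0 to 866.7 CPM of the other young mice. Its gap to the nearest of them was 0.8872 of the range of the group, above the limit for 4 samples. Of 36 groups of 4 values examined in this way, 1 stood out, where chance gives about 1.8. The same mouse had the lowest summed microglial markers of the young mice, at 13140 against 17200 to 21630 CPM, and P2ry12 at 440.5 against 1147 to 1767 CPM. It also had fewer expected counts of Gm14023, the transcript that shares exon bases with Il1a, at 1037.7 against 1350.01 to 2202.1 in the other young mice.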

How the results depend on the processing

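The call on Nlrp3 depended on the test and on the mice included, whereas its direction was the same in every alternative. Its log2 fold change was -0.95 with DESeq2 and -0.97 with no filter on low counts, both past the threshold, and ranged from -1.19 (without 4posI, past the threshold) to -0.75 (without 2posI) with each library left out. Il18bp passed by DESeq2, at 1.44. Of the 10 members, DESeq2 called 2, no filter 1, and the fits without 1 library 0 to 1 (the 1 without 4posI, where 0.467% of all genes were called). Of the 41 pathway genes, DESeq2 called 5, a filter of at least 1 CPM in 3 libraries 1 (Map3k7, with 1.87% of all genes called), and the fits without 1 library 0 to 1 (Tnfaip3 without 4posI). Over all genes, 141 were called (100 higher, 41 lower), against 1403 with DESeq2 (748 higher, 655 lower), 288 with no filter (157 higher, 131 lower), 228 with the CPM filter (148 higher, 80 lower), 196 with the length offset (114 higher, 82 lower), 64 in log2(TPM + 1) (32 in each direction) and 71 in log2(TPM + 0.1) (34 higher, 37 lower). Without 1 library the count was 1 to 157: 1 without 14C, 18C or 2posI, 2 without 29C, 13 without 23C, 82 without 4posI (41 in each direction) and 157 without 3posI. The causes were not tested.

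Some directions changed. Gsdmd, 0.06 with all libraries in edgeR, was -0.02 in log2(TPM + 1) and -0.021 in log2(TPM + 0.1), and ranged from -0.035 (without 23C) to 0.12 without 1 library. Il1rn, 0.63 with all libraries, ranged from -0.42 (without 3posI) to 0.97, Ninj1, 0.74 with all libraries, from -0.012 (without 3posI) to 1.04, and the difference in Il1a to Il1b from -0.22 to 0.91, being -0.01 without 23C, -0.215 without 2posI and -0.217 without 4posI. The other members kept their direction in all alternatives. Log2(TPM + 0.1) moved the median of all genes to -0.13. No paired analysis was possible because the labels give the groups no shared replicate numbers. The number of mice limits the precision, with a common biological coefficient of variation of 37.2%.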

Other observations

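The genes whose levels followed Il1b most closely over the 7 libraries, among 8146 genes with a mean of at least 10 CPM, were Klhdc3 (Pearson r = 0.979, Spearman rho = 0.964), P2ry6 (0.971 and 0.857), Fam214b (0.970 and 0.857), Ppil4 (0.969 and 0.857) and Zdhhc24 (0.967 and 0.964). P2ry6 encodes a receptor for uridine diphosphate that microglia use in phagocytosis. These values describe 7 libraries that differ in age and depth, and so many genes were ranked that close likeness in a few is found by the ranking itself.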
